A study of Homo sapiens with 8 samples.

Results

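The IRF2BP family comprises 3 genes, IRF2BPL, IRF2BP2 and IRF2BP1, and each was found by its symbol as 1 row among the 18388 genes of the deposited table. Human U-2OS Tet-ON cells, an osteosarcoma line that carries a tetracycline-controlled transactivator, were measured by SLAM-Seq, in which 4-thiouridine (4sU) is built into RNA made during a labelling pulse and is read as T-to-C conversions. In all 8 libraries the cells had received siRNA and DMSO, the siRNA at 50 nM, and were harvested after 72 h, with the last 60 min in medium that contained 4sU (or, in 1 library, a concentration of 0 µM). The comparison was between 3 siControl libraries (control siRNA) and 3 siCGGBP1 libraries (a pool of siRNAs against CGGBP1), all at 75 µM 4sU, and it asked which total and newly made RNAs differed after loss of CGGBP1, a protein that binds CGG repeats. One further siControl library had 0 µM and one had 200 µM 4sU.

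IRF2BP proteins are nuclear co-regulators of transcription that were first found as partners of interferon regulatory factor 2 (IRF2), and they share a zinc finger at one end and a RING finger at the other. IRF2BP2 works with NFAT and VGLL4 and is known for its roles in vascular, immune and muscle cells, IRF2BP1 is a closely related co-repressor, and IRF2BPL is best known for a neurodevelopmental disorder and for its effect on Wnt signalling. When an mRNA turns over quickly, a large share of its molecules is new after a short pulse, so the new-to-total ratio serves as a measure of turnover in cells at steady state.

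In the siControl libraries at 75 µM IRF2BPL and IRF2BP2 had a large share of new RNA, so the description of the family as short-lived held for 2 of its 3 genes. For IRF2BP1 the estimate was low in siControl and rested on 7, 8 and 0 conversions, and in siCGGBP1 it ran from 4.17% to 100%, so the data do not carry the description for this gene. After CGGBP1 knockdown IRF2BPL total RNA fell to 41.1% of its siControl level. The level of IRF2BP2 was 144% of siControl and that of IRF2BP1 was 71.7%, and neither passed the test.

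All 3 genes lie on the minus strand in GRCh38 (GENCODE 44). IRF2BPL (ENSG00000119669) occupies chr14:77024543-77028708 as a single exon with 796 codons and a 3′ UTR of 859 bases. IRF2BP1 (ENSG00000170604) occupies chr19:45883608-45886141, also as a single exon, with 584 codons and a 3′ UTR of 412 bases. IRF2BP2 (ENSG00000168264) occupies chr1:234604269-234610178 with 2 exons, 587 codons and a 3′ UTR of 2868 bases.

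Since CGGBP1 is named for CGG repeats, the RefSeq promoter windows of the family (GRCh38.p14, 250 bases before to 50 bases after each start site) were searched on both strands for uninterrupted tandem copies of CGG. Below, capitals mark these copies (CGG, or CCG where the tract lies on the other strand). In IRF2BPL no CGG had a second copy directly beside it, and the 30 bases around its start site are shown with each single CGG or CCG in capitals. IRF2BP1 had 2 tracts of 3 copies just downstream of its start. IRF2BP2 had 2 copies at its first start site, and tracts of 5, 4 and 3 copies upstream of a second annotated start inside the gene.
IRF2BPL, chr14:77028694-77028723 (-), around the start site: CCGcgCGGccaagCCGGggacagcgcgagc
IRF2BP1, chr19:45886102-45886131 (-), 3 copies, bases 21 to 29 after the start: gaggtggaggCGGCGGCGGccgttgcagcg
IRF2BP1, chr19:45886092-45886121 (-), 3 copies, bases 39 to 47 after the start: cggcggcggccgttgcagCGGCGGCGGcga
IRF2BP2, chr1:234610143-234610172 (-), 2 copies at the first start: gtggagcggtcgCGGCGGcagcagcagcag
IRF2BP2, chr1:234609628-234609657 (-), 5 copies before the second start: ggctttgCCGCCGCCGCCGCCGcctttgcg
IRF2BP2, chr1:234609606-234609635 (-), 4 copies before the second start: cctttgcggCCGCCGCCGCCGctggtgggg
IRF2BP2, chr1:234609536-234609565 (-), 3 copies before the second start: cggtggggggCGGCGGCGGcgccccctcct

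Among all 35116 promoter windows of this length, 29.6% held a tract of at least 2 copies, 6.21% one of at least 3 and 1.13% one of at least 5. The windows of the family were rich in G and C, at 70.7% for IRF2BPL, 63.3% for IRF2BP1, and 74.3% and 84% for the first and the second start of IRF2BP2. IRF2BPL, which like most windows had no tandem tract, was called lower in total RNA after knockdown. A link between tracts and the response was not tested, and IRF2BP1 cannot be said to have stayed level. Bases outside the window were not searched. A match is a description of letters and not of binding, and CGGBP1 binding was not measured in these libraries. The paper reports CGGBP1 binding at the start site of IRF2BPL, in its gene body or both, from ChIP-Seq of another cell line. After CGGBP1 depletion it also reports more serine-5 phosphorylated RNA polymerase II and more RNA:DNA hybrids (R-loops) at the IRF2BPL start site. In the IRF2BPL gene body it reports that serine-2 phosphorylated polymerase was affected less than in the upregulated candidate genes, or not at all.

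Short sequence elements in the 3′ UTR are a known feature of labile mRNAs. In the last 500 bases of the 3′ UTR, IRF2BP2 had 4 ATTTA pentamers and IRF2BPL had 0, and the longer form TATTTAT was found in neither. IRF2BP1, whose 3′ UTR of 412 bases is shorter than this window, was left out of the count. Over the 7657 tested genes with a 3′ UTR of at least this length, 65% had an ATTTA and 16.4% a TATTTAT on the transcript strand. Across the whole 3′ UTR the pentamer occurred 8 times in IRF2BP2 and 1 time in IRF2BPL.

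The 6 libraries compared held 10127519 to 14221516 reads assigned to genes, and 10138 genes that reached 100 reads in 3 or more of them were tested, all 3 IRF2BP genes among them. IRF2BP1 reached 100 reads in 4 of the 6 libraries. Both replicate 3 libraries stood apart from the others, with a new-to-total ratio of 0 for 57.4% and 59.8% of the tested genes against 22.5% to 31.9% in replicates 1 and 2 and 55.6% in the library at 200 µM, so results on new RNA are also given without them. Of 7 markers of osteosarcoma cells, VIM, COL1A1, SPARC and RUNX2 passed the read filter. ALPL, at 0 to 21 reads, did not, and COL1A2 and TWIST1 had no row. The 5 markers with a row summed to 3487 to 4216 reads per 1000000 assigned reads (RPM) in siControl and 5250 to 7182 in siCGGBP1. The part of this difference in the results on the family was not tested. Epithelial markers summed to at most 13.0 RPM, with CDH1 at 0, and leukocyte markers to at most 0.681, with CD3E and LYZ at 0.

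CGGBP1, the targeted gene, had 1076, 1138 and 888 reads in the siControl libraries and 185, 118 and 441 in the siCGGBP1 libraries. The groups did not overlap, and the log2 fold change was -2.22 ± 0.39 (SE, adjusted p = 0.0137, edgeR quasi-likelihood test). The highest remaining level was in siCGGBP1 replicate 3. With siControl replicate 1 left out the adjusted p was 0.0632, and with siCGGBP1 replicate 1 left out it was 0.0851 (edgeR).

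IRF2BPL had 1057, 1326 and 1962 reads in siControl and 541, 479 and 863 in siCGGBP1. Every siCGGBP1 library was below every siControl library (9 of 9 pairs), a pattern that 11.7% of all tested genes showed in total RNA, and the third replicate was the highest of its group in both. The level was 126 ± 32.8 RPM (SD, n = 3) in siControl and 51.6 ± 10.1 (n = 3) in siCGGBP1. The log2 fold change was -1.31 ± 0.28 (SE, 95% interval -1.85 to -0.77, adjusted p = 0.0325, edgeR), so IRF2BPL was called lower. A call needed an adjusted p below 0.05 together with a log2 fold change beyond 1 in either direction. It was the 1 called gene of the 3, where 0.957% of all tested genes were called lower and 0.444% higher. Without any 1 of 5 of the 6 libraries the adjusted p was between 0.0673 and 0.131 (edgeR). It was 0.0271 without siCGGBP1 replicate 3, and 0.0178 without both replicate 3 libraries. The study had picked IRF2BPL as a candidate for lower newly synthesized RNA in these same libraries, together with CGGBP1 binding in another cell line. The direction of IRF2BPL here is therefore not independent evidence. In bulk RNA fewer cells that express a gene cannot be told apart from less RNA per cell. The reads of IRF2BPL were fractional in 8 of 8 libraries, so some of its reads were counted only in part by the authors' pipeline, and the other loci are not given in the sources used here. Reads of IRF2BP1, IRF2BP2 and CGGBP1 were fractional in 4 of 8 libraries each.

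IRF2BP2 had 595, 879 and 591 reads in siControl and 824, 661 and 1733 in siCGGBP1. The groups overlapped, and the highest value, in siCGGBP1 replicate 3, lay far above the other 5. That library also kept the most CGGBP1, with 441 reads. The level was 60.1 ± 11.8 RPM (SD, n = 3) in siControl and 86.5 ± 33.1 (n = 3) in siCGGBP1, and the log2 fold change came to 0.51 ± 0.31 (SE, 95% interval -0.09 to 1.11, adjusted p = 0.451, edgeR). Without both replicate 3 libraries the log2 fold change was 0.07 (adjusted p = 0.918, edgeR).

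IRF2BP1 was the most sparsely read of the family, with 267, 134 and 73.5 reads in siControl and 139, 163 and 50 in siCGGBP1. These values overlapped throughout, and both groups had their lowest count in replicate 3. Its level was 14.5 ± 10.5 RPM (SD, n = 3) in siControl and 10.4 ± 5.94 (n = 3) in siCGGBP1. The log2 fold change was -0.50 ± 0.74 (SE, 95% interval -1.95 to 0.96, adjusted p = 0.803, edgeR). The interval is wide enough to hold the fall seen in IRF2BPL, so at this depth IRF2BP1 cannot be said to have stayed level, and its fold change was 0.25 without siControl replicate 1.

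**Figure D1:**
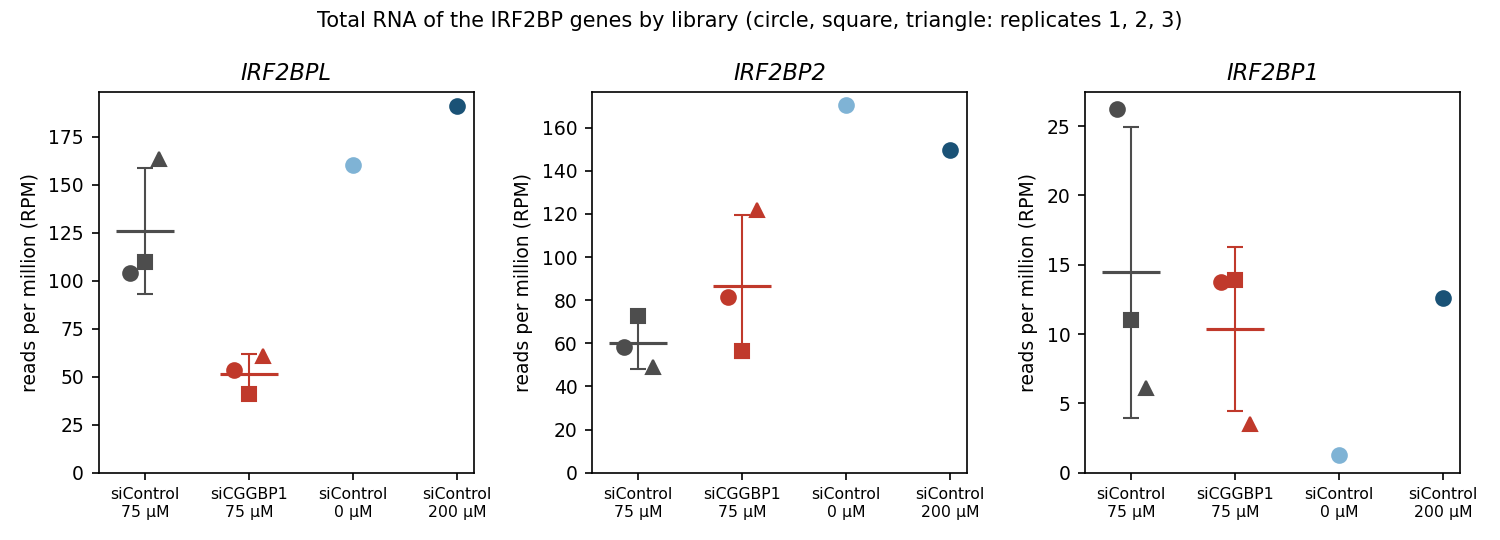
Total RNA of IRF2BPL, IRF2BP2 and IRF2BP1 in reads per 1000000 (RPM) (y axis, from 0, a scale of its own for each gene) in each of the 8 libraries, grouped by siRNA and 4sU concentration, with horizontal lines and bars for the mean ± SD of the groups of 3. The siCGGBP1 points of IRF2BPL, from 40.8 to 60.7, all lie below its siControl points at 75 µM, from 104 to 163, while the groups overlap for the other 2 genes.

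The change in one gene against another was tested within libraries, where the scaling of a library cancels. The log2 ratio of IRF2BPL to IRF2BP2 reads was 0.83, 0.59 and 1.73 in siControl and -0.61, -0.46 and -1.01 in siCGGBP1. At 75 µM IRF2BPL thus had more reads than IRF2BP2 in every siControl library and fewer in every siCGGBP1 library, while in the siControl library at 0 µM it had fewer, 3042 against 3240. The difference in means was -1.74, with p = 0.1 in a two-sided exact permutation test, the smallest p that 3 against 3 libraries can give, and 0.3 after Benjamini-Hochberg adjustment over the 3 pairs of genes. The log2 ratio of IRF2BPL to IRF2BP1 differed by -0.80 (exact permutation p = 0.5, adjusted 0.6) and that of IRF2BP1 to IRF2BP2 by -0.94 (exact permutation p = 0.6, adjusted 0.6), both with overlapping groups. Without 1 library the first of these ranged from -1.59 (siCGGBP1 replicate 3 left out) to -0.11 (siControl replicate 3 left out). No pair could reach 0.05 in this design.

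The new-to-total ratio is the share of a gene's RNA that was made during the pulse, estimated by the authors from the conversions with GRAND-SLAM and given with 5% and 95% credible limits. For IRF2BPL it was 27.0% (24.3 to 30.0), 36.9% (34.2 to 39.8) and 37.2% (34.8 to 39.6) in siControl. Each of these was higher than the ratio of at least 94.5% of the tested genes in the same library. For IRF2BP2 it was 41.5% (37.3 to 46.0), 32.7% (29.5 to 36.2) and 23.2% (19.7 to 27.2), higher than at least 89.7% of the tested genes. IRF2BP2 and IRF2BPL were highest in different replicates, and their ranges overlapped.

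IRF2BP1 differed from both. Its ratio was 0% (0.21 to 5.28), 7.3% (6.42 to 15.8) and 0% (0.18 to 10.2) in siControl, on 7, 8 and 0 conversions. The number of reads with at least 2 conversions was 0 in all 8 libraries, against 650 over all libraries for IRF2BPL and 862 for IRF2BP2. Its reads also covered fewer T bases, 16.1 to 25.2 per read against 37.4 to 47.5 for IRF2BPL and 37.5 to 45.0 for IRF2BP2. The part of this lower T coverage and of the low depth in its ratio was not tested.

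Averaged over the siControl libraries, IRF2BPL had a ratio of 33.7% ± 5.78 (SD, n = 3), rank 268 of 10138 from the highest, and IRF2BP2 one of 32.5% ± 9.15 (n = 3), rank 310. The mean of IRF2BP1 was 2.43% ± 4.21 (n = 3), rank 6645. The median over all tested genes was 4.51%. If RNA levels were at steady state, the means of IRF2BPL and IRF2BP2 correspond to half-lives of 101 and 106 min, a conversion that was not checked here.

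Reference lists put these ratios on a scale. The 44 tested mRNAs of a list of labile transcripts, mainly immediate-early and feedback genes, had a median ratio of 42.4% in siControl and ranged from 4.80% to 89.9%. Highest were DUSP1, a phosphatase that switches off MAP kinases, at 89.9%, the transcription factor KLF6 at 70.2%, and SOCS3, an inhibitor of cytokine signalling, at 69.8%. The 24 mRNAs of a stable list of glycolytic, cytoskeletal and ribosomal genes had a median of 0.952% and none above 4.35%. IRF2BPL and IRF2BP2 therefore lay below the median of the labile list and far above every stable mRNA. The mean of IRF2BP1 fell within the range of the stable list, but its credible limits in siControl replicate 2, 6.42% to 15.8%, lay above that range. The data do not place IRF2BP1 on this scale.

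**Figure D2:**
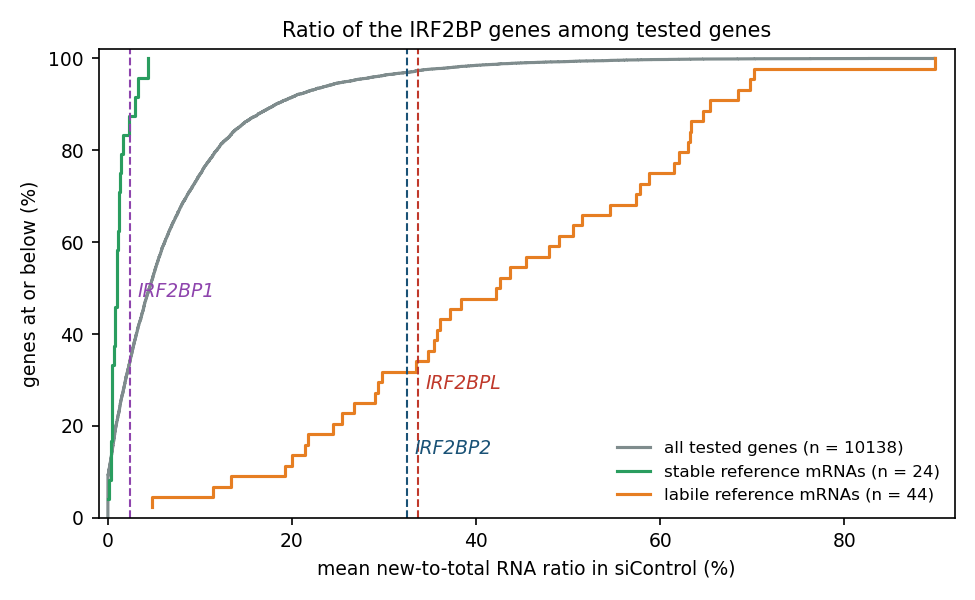
Cumulative share of genes (y axis, %) at or below a given mean new-to-total RNA ratio in siControl (x axis, %) for all 10138 tested genes, the 44 labile and the 24 stable reference mRNAs, with dashed lines at the IRF2BP genes. IRF2BP2 at 32.5% and IRF2BPL at 33.7% lie near the top of the curve of all genes. The mean of IRF2BP1, 2.43% from single values of 0%, 7.3% and 0%, falls within the span of the stable mRNAs.

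After knockdown the ratio of IRF2BPL was 30.1% (26.0 to 34.6), 35.4% (31.3 to 39.8) and 9.74% (7.74 to 12.2). Replicates 1 and 2 were within the siControl range, and replicate 3 was below it. The mean differed from siControl by -8.63 percentage points (p = 0.5 in a two-sided exact permutation test), and by -0.95 without siCGGBP1 replicate 3.

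For IRF2BP2 the siCGGBP1 ratios were 33.4% (30.1 to 36.8), 41.0% (37.1 to 45.1) and 45.0% (42.5 to 47.7), which overlapped the siControl values. The mean difference was 7.31 percentage points (exact permutation p = 0.3), 2.68 without siControl replicate 3 and 11.8 without siControl replicate 1. In the third replicates IRF2BPL thus stood at 9.74% and IRF2BP2 at 45.0% in the same siCGGBP1 library, in the reverse order of the siControl library, at 37.2% and 23.2%.

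For IRF2BP1 the siCGGBP1 ratios were 15.9%, 4.17% and 100%. The value of 100% came from 50 reads with 41 conversions in 986 covered T, of which no read had 2 or more. The mean difference of 37.6 points had an exact permutation p of 0.2 and was 7.58 without that library.

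**Figure D3:**
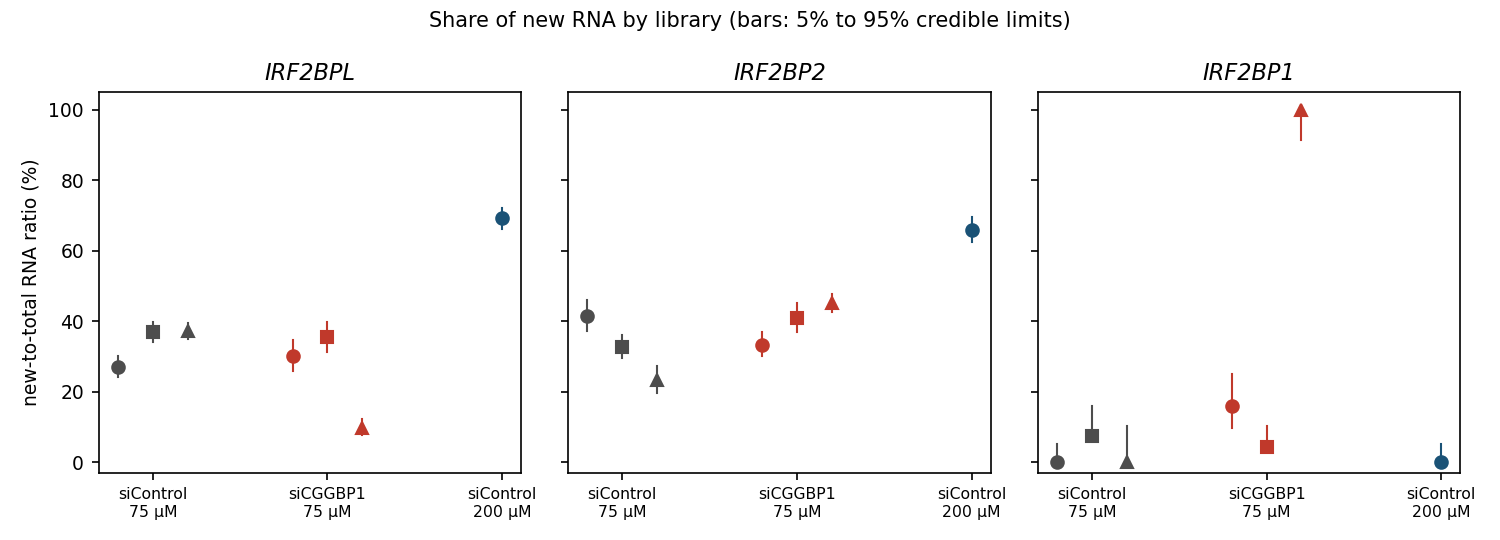
New-to-total RNA ratio (y axis, %) of the 3 IRF2BP genes in each library with 4sU, by siRNA and 4sU concentration, with vertical bars from the 5% to the 95% credible limit. At 75 µM IRF2BPL and IRF2BP2 lie between 23.2% and 45.0%, apart from IRF2BPL at 9.74% in siCGGBP1 replicate 3, and at 200 µM they reach 69.2% and 66.0%.

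The conversions behind these ratios were counted directly. In IRF2BPL there were 0.963, 1.19 and 0.757 conversions per 100 covered T in siControl and 0.853, 1.58 and 0.339 in siCGGBP1. In IRF2BP2 the siControl rates were 1.28, 1.16 and 0.550 and the siCGGBP1 rates 1.24, 1.51 and 1.03. In each of these genes all 6 libraries were above the library without 4sU, which had 0.147 (95% Clopper-Pearson interval 0.127 to 0.170) for IRF2BPL and 0.194 (0.172 to 0.219) for IRF2BP2.

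Neither rate separated the groups. The mean rate of IRF2BPL was 0.970 ± 0.216 in siControl (SD, n = 3) against 0.922 ± 0.621 with knockdown (n = 3, exact permutation p = 0.9), and that of IRF2BP2 was 1.00 ± 0.394 and 1.26 ± 0.242 (exact permutation p = 0.5). IRF2BP1 had 0.122, 0.251 and 0 conversions per 100 covered T in siControl and 0.512, 0.195 and 4.16 in siCGGBP1 (exact permutation p = 0.2). In the library without 4sU it had 0 conversions in 416 covered T, which allows a rate of up to 0.721 at 3 counts (0.883 as the upper Clopper-Pearson limit) and so covers every IRF2BP1 value but that of siCGGBP1 replicate 3. These intervals and limits cover counting error only, since copies of one molecule cannot be recognised without molecular identifiers.

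Reads were then split into new and pre-existing RNA by the ratio. New IRF2BPL RNA was 28.1, 40.5 and 60.7 RPM in siControl and 16.1, 14.4 and 5.91 in siCGGBP1. Pre-existing IRF2BPL RNA was 75.9, 69.2 and 103 RPM in siControl and 37.4, 26.3 and 54.8 in siCGGBP1. The groups did not overlap in either fraction, where 4.4% of all tested genes were lower without overlap in new RNA and 11.9% in pre-existing RNA. Both fractions are parts of the same total reads, in which the groups did not overlap either. They are therefore not independent of the result on total RNA.

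New RNA stood at 28.2% of its siControl level and pre-existing RNA at 47.8%. The log2 fold change of new IRF2BPL RNA was -1.85 ± 0.73 (SE), with an unadjusted p of 0.0112 and an adjusted p of 0.993 (edgeR), so it was not called. The study, which tested new RNA with DESeq2, took IRF2BPL as downregulated in newly synthesized RNA. DESeq2 as run here on reads times ratio did not call it either (log2 fold change -1.86, adjusted p = 0.999). Over all tested genes edgeR called 2 lower (0.0197%) and 3 higher (0.0296%) in new RNA, 5 in all (0.0493%), and 3.15% had an unadjusted p under 0.05. DESeq2 called 16 lower and 11 higher. The paper reports far more changed new transcripts, so the absence of a call here is not a like comparison. The cause of that difference was not tested. Without both replicate 3 libraries the log2 fold change of new IRF2BPL RNA was -1.16 (adjusted p = 1, edgeR).

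New IRF2BP2 RNA was 24.3, 23.8 and 11.4 RPM in siControl and 27.1, 23.1 and 54.9 in siCGGBP1. The values of replicates 1 and 2 lay close together in both groups, and the third replicates lay apart on either side, so that the groups overlapped. For comparison, 2.91% of all tested genes were higher without overlap in new RNA. The log2 fold change was 0.81 ± 0.72 (SE, adjusted p = 1, edgeR), and 0.07 without both replicate 3 libraries. New IRF2BP1 RNA was at most 3.52 RPM in any of the 6 libraries and 0 in 2 of the siControl libraries, too little for a fold change to be read.

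**Figure D4:**
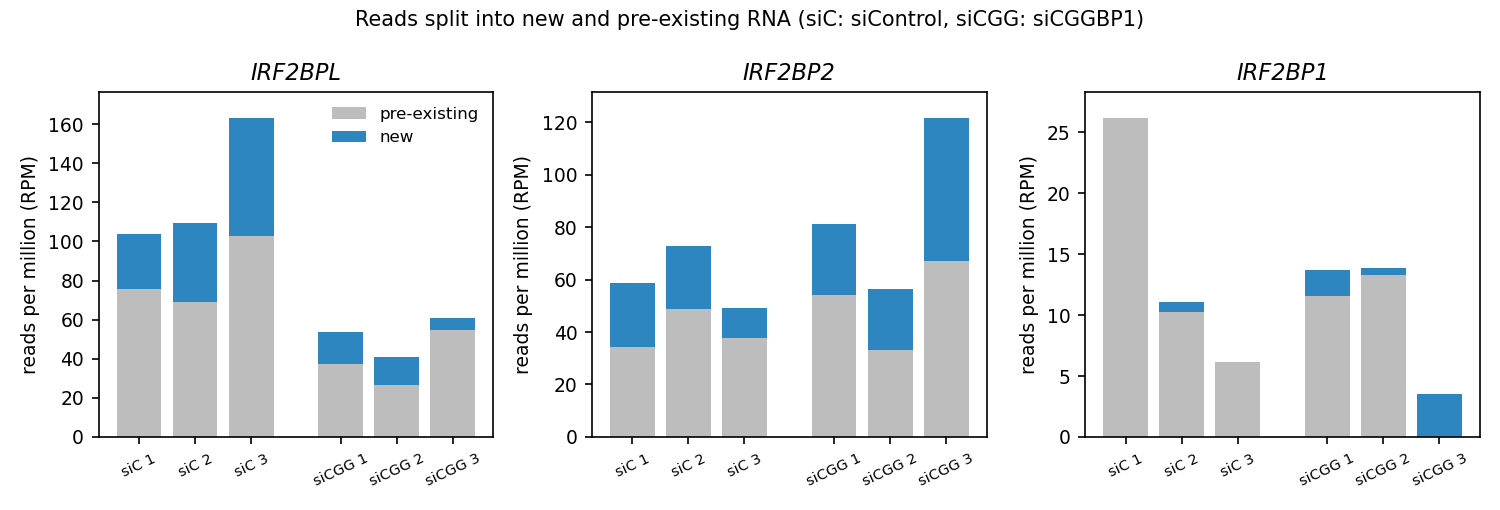
Level in RPM (y axis, from 0, a scale of its own for each gene) of the IRF2BP genes in the 6 libraries at 75 µM 4sU, each bar split into pre-existing RNA (grey) and new RNA (blue). For IRF2BPL both parts are lower in all siCGGBP1 bars, with new RNA at 5.91 to 16.1 against 28.1 to 60.7.

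**Figure D5:**
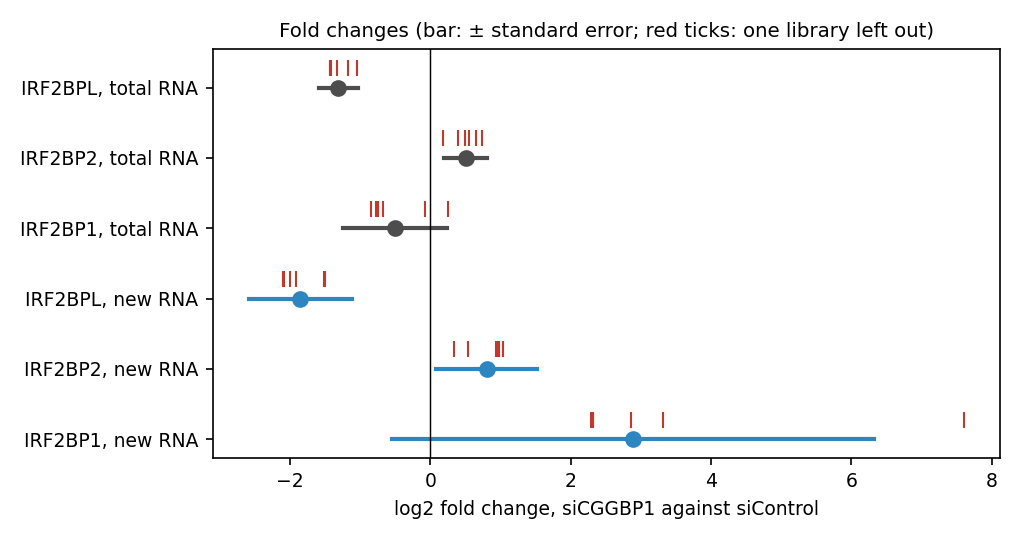
Log2 fold change of siCGGBP1 against siControl (x axis) for total RNA (grey) and new RNA (blue) of the 3 genes, with bars of ± 1 standard error and red ticks for the fits without 1 library. The ticks of IRF2BPL total RNA lie between -1.43 and -1.05, and those of IRF2BP1 total RNA lie on both sides of 0.

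The levels in the 2 siControl libraries with other 4sU concentrations were not part of any test. IRF2BPL stood at 160 RPM at 0 µM and 191 at 200 µM, where the 3 libraries at 75 µM spanned 104 to 163. IRF2BP2 stood at 170 and 149, above all 6 libraries at 75 µM, of which the highest was at 122. IRF2BP1 stood at 1.31 and 12.6, the first on 25 reads.

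Partners of the family were read from a list of 22 genes that holds DNA-binding partners, co-repressor subunits and reported targets. Of its 18 tested genes 0 were called in either direction in total RNA, against 1.4% of all tested genes, and their median log2 fold change was 0.14 beside 0.00 over all genes. The 4 with the lowest p were VGLL4, a cofactor of TEAD factors, at 1.27 (adjusted p = 0.0634), CBFA2T2, a co-repressor of the ETO family, at 1.53 (adjusted p = 0.165), NFATC3, a calcium-dependent transcription factor, at 0.71 (adjusted p = 0.196), and FOXO3, a transcription factor restrained by AKT, at -0.70 (adjusted p = 0.290, all edgeR). These 4 of 18 were also the ones with an unadjusted p under 0.05 in total RNA, a limit that 16.4% of all tested genes passed, and DESeq2 called 1 of the 18. In new RNA 0 of the 18 were called by edgeR or DESeq2, and 2 had an unadjusted p under 0.05 (edgeR, against 3.15% of all tested genes).

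Of 9 interferon regulatory factors 4 were tested and 0 were called in total or new RNA by edgeR or DESeq2, with 0 at an unadjusted p under 0.05 (edgeR). Over all tested genes edgeR called 1.4% in total RNA and 0.0493% in new RNA. In total RNA the log2 fold changes were, for IRF1, an interferon-induced activator, 0.62 (adjusted p = 0.573), for IRF2, the factor that named the family, -0.11 (adjusted p = 0.956), for IRF3, the mediator of responses to viral nucleic acid, -0.22 (adjusted p = 0.902) and for IRF9, a subunit of the interferon-stimulated ISGF3 complex, 0.97 (adjusted p = 0.711, all edgeR). Their median was 0.26. The siControl ratio of IRF1 was 52.2% and that of IRF2 was 12.7%.

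Among 21 Wnt/beta-catenin genes 11 were tested, and 1 was called lower and 0 higher in total RNA, with a median log2 fold change of 0.12. Over all tested genes 0.957% were called lower and 0.444% higher. An unadjusted p under 0.05 was found in 3 of the 11 (edgeR, against 16.4% of all tested genes). The called gene was CCND1, cyclin D1, which drives entry into S phase, at -1.34 ± 0.23 (SE, adjusted p = 0.0137, edgeR). Its call was lost without any 1 of 4 libraries, siControl replicates 2 and 3 and siCGGBP1 replicates 1 and 2. The next by p were TCF7L2, a DNA-binding partner of beta-catenin, at -0.79 (adjusted p = 0.134), ZNRF3, a ubiquitin ligase that removes Wnt receptors, at 1.12 (adjusted p = 0.281), and AXIN1, a scaffold of the complex that degrades beta-catenin, at 0.67 (adjusted p = 0.439, all edgeR). In new RNA 0 of the 11 were called by edgeR or DESeq2, and 0 had an unadjusted p under 0.05 (edgeR, against 3.15% of all tested genes).

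Of the 44 labile mRNAs 0 were called in total RNA by edgeR or DESeq2, where edgeR called 1.4% of all tested genes. An unadjusted p under 0.05 was found in 9 (edgeR, against 16.4% of all tested genes), and the median log2 fold change was 0.10. CDKN1A, an inhibitor of cyclin-dependent kinases, was at 0.99 (adjusted p = 0.0222) and so just under the fold limit, and the immediate-early factor EGR1 was at 1.46 (adjusted p = 0.0526, both edgeR). BTG2, an anti-proliferative gene, was at 1.05 (adjusted p = 0.115) and JUN, a subunit of AP-1, at 0.66 (adjusted p = 0.151, both edgeR). EGR1 was the 1 labile mRNA called in new RNA, at 1.74 (adjusted p = 7.34e-19, edgeR), where 0.0296% of all tested genes were called higher. DESeq2 and limma did not make this call, and EGR1 too had been picked by the study on these libraries. With these 2 libraries of replicate 3 left out, 4 labile mRNAs were called higher and 1 lower in total RNA.

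Of the 24 stable mRNAs 1 was called lower, ACTG1, a cytoplasmic actin, at -1.28 (adjusted p = 0.000696, edgeR), against 0.957% of all tested genes. The median log2 fold change of the list was -0.21, and 13 had an unadjusted p under 0.05 (edgeR, against 16.4% of all tested genes). In new RNA 0 were called by edgeR or DESeq2, with 2 at an unadjusted p under 0.05 (edgeR, against 3.15% of all tested genes). LDHA, a glycolytic enzyme, at -0.83 (adjusted p = 0.0257), TUBA1B, an alpha-tubulin, at -0.71 (adjusted p = 0.0259), and ACTB, the other cytoplasmic actin, at -0.69 (adjusted p = 0.0403, all edgeR) were past the p threshold and within the fold limit. So were TPI1, another glycolytic enzyme, at -0.99, and in the other direction RPS3, a ribosomal protein, at 0.53 (adjusted p = 0.0473 for both, edgeR), which were named after their values were seen. The fold change of IRF2BPL was close to that of ACTG1, and its siControl ratio was 33.7% against 2.28%.

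The genes whose log2 normalized total reads ran most like each member over the 6 libraries are given as a description. They share libraries and depth, and n is 6. For IRF2BPL they were RAD1, a checkpoint clamp subunit (Pearson r = 0.994, log2 fold change -0.52, adjusted p = 0.309), JKAMP (r = 0.994, -1.33, adjusted p = 0.0518) and SHCBP1 (r = 0.993, -1.36, adjusted p = 0.0435, all edgeR), of which SHCBP1 was called lower. For IRF2BP2 they were CHAF1B, a histone chaperone subunit (r = 0.994), IFT81, a ciliary transport protein (r = 0.991), and COPS4, a COP9 signalosome subunit (r = 0.987). For IRF2BP1 they were BRCA2, which acts in DNA repair (r = 0.984), MAP7D3 (r = 0.982) and TRMT5, a tRNA methyltransferase (r = 0.980). None of the latter 6 was called. The members themselves did not run together, with r = -0.06 between IRF2BPL and IRF2BP1, -0.40 between IRF2BPL and IRF2BP2, and -0.56 between IRF2BP1 and IRF2BP2.

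The neighbours of the 3 loci with a row in the table were mostly too low to test. Next to IRF2BPL, ANGEL1 lay 198297 bases away and was at 1.77 ± 1.00 on the log2 scale (SE, adjusted p = 0.412, edgeR), higher in 9 of 9 pairs of libraries, as were 12.6% of all tested genes, and so opposite in sign to IRF2BPL without passing the test. The neighbour on its other side, LINC02288, was not tested. Next to IRF2BP1, MYPOP was at 0.18 (adjusted p = 0.902, edgeR) and FOXA3 was not tested, and neither TARBP1 nor LINC01132 beside IRF2BP2 was tested. An antisense lncRNA on the plus strand overlaps IRF2BPL (ENSG00000273729) and another overlaps IRF2BP2 (ENSG00000228830). Neither had a row of its own in the table. The library kit keeps strand, but the strand setting of the counting is not given in the sources used here.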

How the data were processed

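RNA from U-2OS Tet-ON cells was alkylated with iodoacetamide and sequenced as QuantSeq 3′ libraries by the authors, who removed rRNA reads with Bowtie2 2.3.0, mapped reads of at least 18 nt with STAR 2.5.3a to the human genome (Ensembl 90, GRCh38; versions per the submitters' processing notes) and ran GRAND-SLAM. The deposited table gives, per gene and library, estimated counts of reads, conversions, covered T and reads with at least 2 conversions (read so from the column name min2), and the new-to-total ratio as a fraction with its limits. No removal of duplicates or molecular identifiers is named. A 3′ library has about 1 read position per molecule, so levels were not divided by length and are compared within a gene.

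Groups followed the sample titles. Estimated counts were rounded, genes reaching 100 reads in 3 or more of 6 libraries were kept, and edgeR 4.0.16 (R 4.3.3, TMM, quasi-likelihood, Benjamini-Hochberg over 10138 genes) gave the fold changes. A call needed an adjusted p below 0.05 with a log2 fold change beyond 1 in either direction. New RNA was reads times ratio, scaled by total reads. Fold change intervals are ± 1.96 standard errors. Ratios, rates and read ratios had two-sided exact permutation tests, whose smallest p is 0.1. Totals were 10127519 to 19011714 reads over 8 libraries. The paper gives N = 3 for its SLAM-Seq comparisons and names N as the number of biological replicates. Nothing in the labels says that replicates were separate cultures, and p-values measure the spread between these libraries.

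Alternatives were DESeq2 1.42.0, limma 3.58.1, other filters, scalings and measures of new RNA, a replicate block and each library left out. Leaving out both replicate 3 libraries was chosen after seeing the data. The script was tested on simulated data. The genes and lists were chosen with earlier results of these data known. Named genes were CGGBP1, the members, the 3 genes most correlated with each (0.5 added before the log2), neighbours on each side, and from each list the called genes and the 4 with the lowest p, plus the 3 labile mRNAs with the highest ratio. Positions are from GENCODE 44 (18198 of 18388 identifiers matched) and promoters from RefSeq (GRCh38.p14).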

Additional observations from a re-analysis of the deposited data

Results flagged for a closer look

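The siControl library at 200 µM 4sU entered no comparison, and it carried conversion signal in 2 of the 3 IRF2BP genes above the library without 4sU. Like both replicate 3 libraries it stood apart, with a ratio of 0 for 55.6% of the tested genes, and its overall rate of 0.218 conversions per 100 covered T was below those of siControl replicates 1 and 2 at 75 µM, 0.234 and 0.245. IRF2BPL had 1.27 conversions per 100 covered T at 200 µM (95% Clopper-Pearson interval 1.20 to 1.34) against 0.147 (0.127 to 0.170) at 0 µM. In the siControl libraries at 75 µM this rate was 0.757 to 1.19. Its new-to-total ratio there was 69.2% (credible limits 66.2 to 72.2), higher than 95.7% of the tested genes, where the 3 siControl libraries at 75 µM gave 27.0% to 37.2%. IRF2BP2 had 1.74 conversions per 100 covered T (1.64 to 1.85) against 0.194 (0.172 to 0.219) at 0 µM and 0.550 to 1.28 in siControl at 75 µM. Its ratio was 66.0% (62.4 to 69.5) against 23.2% to 41.5% at 75 µM. Rate and ratio did not always rank libraries alike. Among the siControl libraries at 75 µM, replicate 3 had the lowest IRF2BPL rate and the highest IRF2BPL ratio. For IRF2BP2 it was lowest in both. Ratios and half-lives of different libraries are compared with this limit.

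On the steady-state conversion the 200 µM ratios correspond to half-lives of 35.3 min for IRF2BPL and 38.6 min for IRF2BP2, so the value in minutes moved with the 4sU concentration or the library, which cannot be told apart with 1 library. IRF2BP1 had 0 conversions in 3420 covered T at 200 µM, which allows a rate of up to 0.0877 per 100 covered T at 3 counts (0.108 as the upper Clopper-Pearson limit), and a ratio of 0%.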

How the results depend on the processing

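IRF2BPL total RNA kept its direction in all 11 alternatives, with log2 fold changes from -1.43 to -1.05 when 1 library was left out and from -1.33 to -1.18 otherwise. Its adjusted p was above 0.05 in 5 of the 6 fits without 1 library (0.0673 to 0.131) and from 0.000547 to 0.0317 in the other settings. CGGBP1 ranged from -2.71 to -1.91 without 1 library. IRF2BP2 total RNA was never called (0.18 to 0.74 without 1 library), and IRF2BP1 ranged from -0.85 to 0.25, the latter without siControl replicate 1. No member was called in new RNA under any of 16 alternatives (for IRF2BP1, DESeq2 gave no adjusted p).

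The IRF2BPL conversion rate difference changed sign to 1.14 as reads with at least 2 conversions per 100 reads and ranged from -0.37 to 0.24 without 1 library (0.06 without siControl replicate 2 and 0.24 without siCGGBP1 replicate 3). The log2 ratio of IRF2BP1 to IRF2BP2 differed by -1.55 to 0.0024 without 1 library, the latter without siCGGBP1 replicate 3. The cause of these changes was not tested.

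In total RNA 45 genes were called higher and 97 lower, against 166 and 205 with DESeq2, 121 and 206 with no filter beyond 1 read, 117 and 169 at an adjusted p under 0.1, 139 and 181 without both replicate 3 libraries, and 15 to 48 and 33 to 100 without 1 library. In new RNA 3 were higher and 2 lower, against 11 and 16 with DESeq2, 11 and 7 on conversion counts, 0 and 0 with limma (with 1 or with 10 added), 1 higher with scaling from new reads or on reads with at least 2 conversions, 4 lower with the posterior mean ratio, 7 lower without both replicate 3 libraries, and 1 to 3 and 1 to 4 without 1 library.

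In total RNA the partner list had 1 call with DESeq2 and with no filter. The labile list had 1 with no filter, 1 with the block, 5 without both replicate 3 libraries and 0 to 1 without 1 library, the Wnt list had 0 to 1 without 1 library, and the stable list had 2 with no filter and with the block. In new RNA the labile list had 0 with DESeq2 and limma and 2 on conversion counts, and the stable list 1 on conversion counts.

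With the replicate number as a block IRF2BPL total RNA was at -1.29 (adjusted p = 0.0246, edgeR), 53 genes were called higher and 107 lower in total RNA, and 1 higher and 1 lower in new RNA. Deviations of same-numbered libraries correlated at 0.101, 0.162 and 0.0792, and those of differently numbered libraries at -0.0942 to -0.0149. Each library thus correlated best with its own number. The labels do not say what a shared number stands for, so the main tests were unpaired and the block is given as an alternative. Within pairs exchanged by number the exact permutation p of the IRF2BPL to IRF2BP2 ratio was 0.25, the smallest possible. Depth limits IRF2BP1, at 50 to 267 reads in the 6 libraries.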
